A study of Homo sapiens with 6 samples.

Results

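Pseudouridine synthases are the enzymes that turn uridine in RNA into pseudouridine, its isomer with a carbon bond between base and sugar. The stand-alone enzymes find their target uridines without a guide RNA, whereas dyskerin, the enzyme of box H/ACA particles, is led by one. The genes examined were 10 stand-alone synthases, namely PUS1, PUS3, PUS7, PUS7L, PUS10, PUSL1, TRUB1, TRUB2, RPUSD3 and RPUSD4, among 20037 protein-coding genes of the RefSeq annotation of GRCh38. They were chosen by name, and a peak was counted for a gene when its summit, the position of highest pileup, lay within the gene's span. That gave 89 peaks, 22 of 30111 in replicate 1, 52 of 160931 in replicate 2 and 15 of 65097 in replicate 3.

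The peaks came from RNA immunoprecipitation and sequencing (RIP-seq), which recovers the RNA held by a protein. They were HEK293T cells, a standard line from human embryonic kidney, with the genotype SNRPD2OE, read here as overexpression of SNRPD2, the gene of the spliceosomal ring protein SmD2. The labels gave 3 such samples and 3 with the genotype Ctrl, and peak lists of the former were analysed while the latter were not analysed here. How overexpression was achieved, the antibody or tag, and whether replicates were separate cultures are not in the labels, so the spread between lists may be technical and no comparison with control cells was made. PUS7 was singled out because the series also knocked it out in HEK293T cells to study how pseudouridine relates to SmD2, and those knockout samples were not analysed here.

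Several synthases have known roles in separate compartments. PUS1, PUS3 and PUS10 modify tRNA, TRUB1 the T loop of tRNA and like hairpins in mRNA, and PUS7 a short uridine-rich motif in tRNA and mRNA. TRUB2, RPUSD3 and RPUSD4 work in mitochondria, where RPUSD4 acts on ribosomal RNA. PUS7L is a relative of PUS7 named for its sequence, and PUSL1 a relative of PUS1. A peak in one of these genes concerns RNA made from the gene, not the enzyme and not the sites that it modifies.

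The lists differed in kind. The median width of the peaks was 77, 40 and 12210 bp in replicates 1, 2 and 3, and 49284 peaks of replicate 3 were wider than 1000 bp. The weakest peak of each list had an unadjusted p of 0.01. Far fewer peaks, 1447, 5820 and 1208, had a q-value (p adjusted over all positions by the caller) below 0.05. The number of reads at a summit was recovered from the deposited fold and p-value, and summits of a single read numbered 0, 114912 and 35777. SNRPD2 itself, the overexpressed gene, had a peak with 78, 80 and 78 reads, which no other peak of its list exceeded. The folds of these peaks were 2.17, 2.79 and 3.46. By −log10 p they ranked at percentiles 87.5, 99.8 and 94.5 among the strongest peaks of protein-coding genes, so most reads did not make them strongest. As a measure of peaks at genes that kidney cells should not express, 23 genes restricted to other tissues (ALB and INS among them) were counted. They had a summit in 3, 12 and 10 cases, where 45.3%, 76.7% and 65.5% of all protein-coding genes had one. With at least 10 reads there were 0 cases in any list, against 14.2%, 15.9% and 13.4%. Cell identity was not checked further, since peak lists carry no transcript levels.

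The sequences around 3 gene starts are given because peaks of 2 lists overlapped within the first 500 bp of these genes. Each line holds 60 bases before the annotated start in lower case and the first 30 transcribed bases in capitals (RefSeq, GRCh38.p14, minus strand, 5′ to 3′). The windows are chr7:105522242-105522331 for PUS7, chr3:9843979-9844068 for RPUSD3 and chr11:126211621-126211710 for RPUSD4. The overlapping peaks begin 32 bp or more after the start, so no printed base lies under them.
PUS7: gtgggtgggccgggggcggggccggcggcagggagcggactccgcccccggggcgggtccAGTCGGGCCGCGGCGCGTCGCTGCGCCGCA
RPUSD3: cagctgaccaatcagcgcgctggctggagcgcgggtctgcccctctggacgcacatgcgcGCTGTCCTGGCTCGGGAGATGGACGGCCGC
RPUSD4: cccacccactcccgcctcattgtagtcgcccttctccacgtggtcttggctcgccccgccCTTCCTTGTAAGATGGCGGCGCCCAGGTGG
Over the whole 300-base start window, G and C made up 68.3% of the bases for PUS7, 56.0% for RPUSD3 and 67.7% for RPUSD4, against a median of 58.3% over 27305 genes. Most of this window lies before the start, so these shares do not describe the RNA under the peaks. The motif known for PUS7, written UNUAA or UNUAG and searched on the transcribed strand only, lay in the first 50 transcribed bases of RPUSD4 and not of PUS7 or RPUSD3. In RPUSD4 a match lies among the printed capitals, before both peaks. The motif lay in the first 50 bases in 15% of all genes with a start window, and a match of so few letters is no modified site. Of the 10 genes, 7 had a start window and so a known strand. PUS1, PUS7L and PUSL1 had none, and positions in these are given from the low-coordinate end of the span.

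PUS7 lies on chromosome 7 from 105456501 to 105522271, a span of 65.8 kb that overlaps no other annotated gene. It held 6, 12 and 3 summits in replicates 1, 2 and 3, which with PUS10 was the highest total, 21 peaks each. The peaks were spread over the whole gene, from 168 bp to 64.5 kb after the start. Most were thin, with 8 of the 21 resting on a single read and 2 on at least 10. By list the single-read peaks were 0 of 6, 7 of 12 and 1 of 3. Of all peaks in protein-coding genes 0%, 65.1% and 45.9% had a single read, so such peaks were no more common in PUS7.

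The strongest PUS7 peaks of the 3 lists lay at different places. In replicate 3 it was a peak of 143 bp at the 5′ end, 42 to 184 bp after the start, with 16 reads, a fold of 4.87 and a −log10 q of 3.74. Replicate 1 had a peak of 114 bp wholly inside it, 57 to 170 bp after the start, with 11 reads and a fold of 2.53, and both summits were 14 bp apart. By −log10 p the peaks of replicates 3 and 1 ranked at percentiles 99.5 and 15.6 of their lists. The fold is the authors' value. It was read as scaled summit height over background, with 1 added to both, and since the lists were scaled differently it is not compared between them. The replicate 1 peak is the only one of the 89 for which another number of reads was also within the tolerance, here 7, which would equal the peak at 13.8 kb described next. Replicate 2 had no summit within 500 bp of the PUS7 start.

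In replicate 2 the strongest PUS7 peak lay 51.5 kb from the start, 78.3% of the way along the gene, with 6 reads, a fold of 5.43 and a −log10 q of 2.72. A second peak of replicate 2, at 50.1 kb, had 7 reads and a fold of 4.2, and covered the whole of a replicate 1 peak of 52 bp with 2 reads. Their summits were 16 bp apart. In replicate 1 the peak of highest −log10 p, with 4 reads and a fold of 3.15, lay at 53.8 kb and met no peak of another list. Peaks of replicates 1 and 2 at 13.8 kb, with 7 reads each, came within 2 bp of each other without overlapping. The middle and far part of PUS7 thus carried peaks of few reads in replicates 1 and 2 that met at 1 place, while the 5′ end carried the PUS7 peak with most reads in replicates 1 and 3.

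The other PUS7 peaks of replicate 2 held at most 4 reads. The one of 4 reads, at 16.1 kb with a fold of 3.67, ranked at percentile 90.1 of its list by −log10 p and met no peak of another list. From 20.6 to 23 kb after the start lay 6 peaks of 1 read each, with folds from 1.75 to 1.87. None of the 6 overlapped a peak of another list. A replicate 2 peak of 2 reads at 30.7 kb lay inside a replicate 3 peak of 7476 bp that also had 2 reads at its summit, and the summits were 44 bp apart. In all, 6 of the 21 PUS7 peaks (28.6%) overlapped a peak of another list, and no position was covered by all 3.

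**Figure D1:**
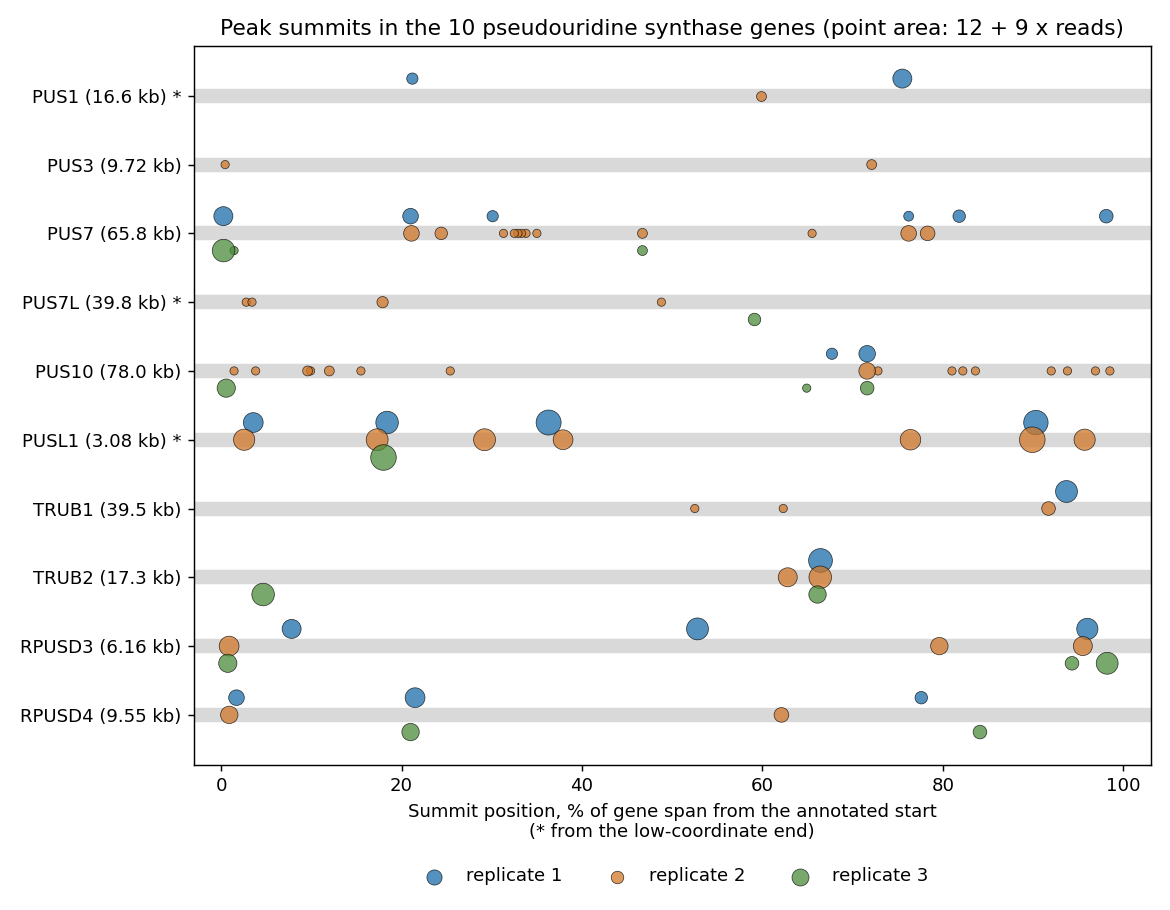
Position of every peak summit along the 10 genes, as percent of the gene span from the annotated start (or, for the starred PUS1, PUS7L and PUSL1, from the low-coordinate end), with 1 colour per replicate and point area growing with the reads at the summit. Large points of all 3 colours stand together in PUSL1, TRUB2 and RPUSD3, whereas the PUS7 and PUS10 points are many, mostly small, and spread along the span.

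TRUB2, RPUSD3 and RPUSD4, named above for mitochondria, differed among themselves in depth. At least 10 reads lay at 4 of 5 TRUB2 summits, 7 of 9 RPUSD3 summits and 1 of 7 RPUSD4 summits. TRUB2, on chromosome 9 from 128305159 to 128322447, had 1, 2 and 2 summits. All 3 lists had a peak at 1 place, 66.4% of the way from the start, with 18, 16 and 9 reads and folds of 2.36, 3.08 and 2.93. By −log10 p these ranked at percentiles 35.4, 95.3 and 86.6 of their lists. The peaks were 66, 98 and 149 bp wide and shared 24 bp (chr9:128310964-128310987), and the summits of replicates 1 and 2 were 1 bp apart. A long noncoding RNA gene, LOC105376286, covers 19.4% of the TRUB2 span, and none of its peaks had the summit there. The strongest TRUB2 peak, in replicate 3 alone, lay 805 bp from the start with 16 reads, a fold of 4.59 and a −log10 q of 1.91.

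RPUSD3, on chromosome 3 from 9837849 to 9844008, was the only gene of the 10 with the same number of summits, 3, in each list. All lists had a peak near the 3′ end of the gene, where 36 bp were shared (chr3:9838069-9838104), 96.1% of the way along. Reads there were 14, 11 and 15 and folds 3.13, 1.87 and 4.30. By −log10 p these peaks ranked at percentiles 72.0, 0.355 and 97.2 of their lists, so that of replicate 2 was among the weakest. The summits were up to 171 bp apart, since the replicate 3 peak was 259 bp wide. At the 5′ end, replicates 2 and 3 had peaks with summits 55 and 46 bp from the start, with 12 and 10 reads, while the nearest replicate 1 peak lay 482 bp from the start with 11 reads. The strongest RPUSD3 peak in replicate 1, with 15 reads and a fold of 5.38, lay in mid-gene and was met by neither other list.

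RPUSD4, on chromosome 11 from 126202096 to 126211650, had 3, 2 and 2 summits and matched the lists by pairs only. Replicates 1 and 2 met at the 5′ end, with 7 and 9 reads over 117 shared bp. Replicates 1 and 3 met 2.05 and 2.01 kb from the start, with 12 and 9 reads over 79 shared bp. RPUSD4 had no segment shared by all 3 lists.

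PUSL1, on chromosome 1 from 1308597 to 1311677, is the shortest of the 10 genes at 3.08 kb and held 4, 7 and 1 summits. Each of its 12 peaks had at least 10 reads, from 12 to 21. A place 581 bp from the low-coordinate end was covered by all 3 lists over 29 bp (chr1:1309164-1309192), with 16, 15 and 21 reads and folds of 2.12, 1.95 and 3.16. The background there was 6.67, 7.22 and 3.94 reads, and by −log10 p the peaks ranked at percentiles 2.0, 15.2 and 85.4 of their lists. Replicates 1 and 2 met at 3 further places, near 0.1, 1.1 and 2.8 kb from that end. The strongest peak, in replicate 2 at 79 bp from the low-coordinate end, had 14 reads, a fold of 6.42 and a −log10 q of 5.19, the highest among the 89 peaks. Replicate 3, with 1 summit in PUSL1, had none at these other places. INTS11 overlaps 2.53% of the PUSL1 span, and no PUSL1 summit lay in it.

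Among PUS1, PUS3, PUS7L, PUS10 and TRUB1, PUS10 alone had peaks that overlapped another list, 13 of its 21 (61.9%). PUS10, on chromosome 2 from 60940223 to 61018259, had 2, 16 and 3 summits, but 13 of the 16 in replicate 2 had a single read. All lists met 55847 bp from the start (segment midpoint), with 8, 8 and 5 reads, folds of 5.38, 2.43 and 2.18, and summits within 34 bp. The replicate 3 peak there was 23610 bp wide, so without peaks wider than 1000 bp PUS10 had no segment shared by all 3 lists. Peaks of replicate 3 covered 80.0% of the PUS10 span, and the 10 single-read peaks of PUS10 that overlapped another list either lay inside a wide peak of replicate 3 or were one themselves. The PUS10 peak of replicate 3 at 449 bp from the start, with 10 reads, also lies in PEX13, and the 2 genes cannot be told apart at that place.

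TRUB1, on chromosome 10 from 114938195 to 114977676, had 1, 3 and 0 summits. The deepest, of 15 reads in replicate 1 at 37.0 kb and of 5 reads in replicate 2 at 36.2 kb, both lay near the 3′ end but did not overlap. PUS1, on chromosome 12 from 131929276 to 131945896, had 2, 1 and 0 summits, of which 1 in replicate 1 reached 11 reads. PUS7L, on chromosome 12 from 43718992 to 43758790, had 0, 4 and 1 summits with at most 4 reads. PUS3, on chromosome 11 from 125893485 to 125903206, had 2 summits in replicate 2 only, with 2 reads and 1 read, and HYLS1 overlaps 73.7% of its span and holds the first of these. None of the peaks of PUS1, PUS3, PUS7L and TRUB1 overlapped a peak of another list.

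**Figure D2:**
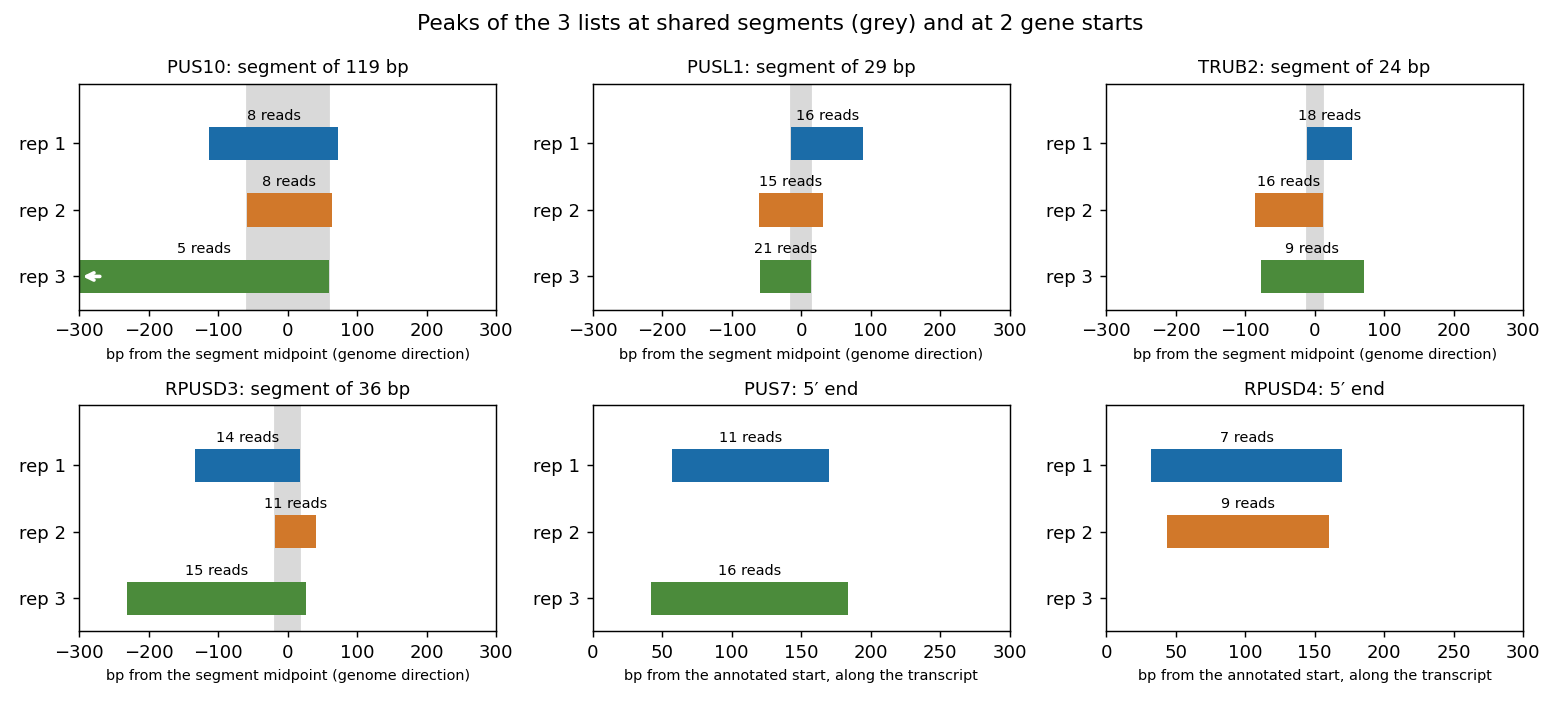
Extent of the peaks of each replicate at the 4 segments covered by all 3 lists (grey, in bp from the segment midpoint) and at the annotated starts of PUS7 and RPUSD4 (in bp along the transcript), with the reads at each summit. The peaks of PUSL1, TRUB2 and RPUSD3 are all narrow, the replicate 3 peak of PUS10 runs far past the panel (arrow), and PUS7 has 5′ end peaks of 11 and 16 reads in replicates 1 and 3 and none in replicate 2.

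Counted over the genes, 8, 10 and 7 of the 10 had a summit in replicates 1, 2 and 3, where 45.3%, 76.7% and 65.5% of all protein-coding genes had one. A summit in all 3 lists was found for 6 of the 10, PUS7, PUS10, PUSL1, TRUB2, RPUSD3 and RPUSD4, against 38.5% of protein-coding genes. A segment of at least 20 bp covered by all 3 lists was found for 4, PUS10, PUSL1, TRUB2 and RPUSD3, against 10.8%. With peaks of at most 1000 bp it was 3 of 10 against 5.97%. A summit of at least 10 reads was found for 7, 3 and 5 of the 10 genes, against 14.2%, 15.9% and 13.4%. The protein-coding background includes genes that are silent in these cells, transcript levels were not used here, and whether the members differ from expressed genes was not tested.

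Of the 89 peaks, 6 had a q-value below 0.05, and they lay in 5 of the 10 genes, against 22.3% of protein-coding genes. By list they lay in 2, 2 and 2 of the 10 genes, against 5.21%, 18.3% and 4.01%. PUS7 had such a peak in 2 lists, replicates 2 and 3, as 4.55% of protein-coding genes did in at least 2. These 2 peaks were the one in the far part and the one at the 5′ end described above, so they are not 1 site seen again. PUS10 and RPUSD3 had theirs in replicate 1, PUSL1 in replicate 2 and TRUB2 in replicate 3. At the places of these 6 peaks the other lists had a peak with a q-value above 0.05 or none. At the segments shared by all 3 lists in PUSL1, TRUB2 and RPUSD3, no peak had a q-value below 0.05.

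**Figure D3:**
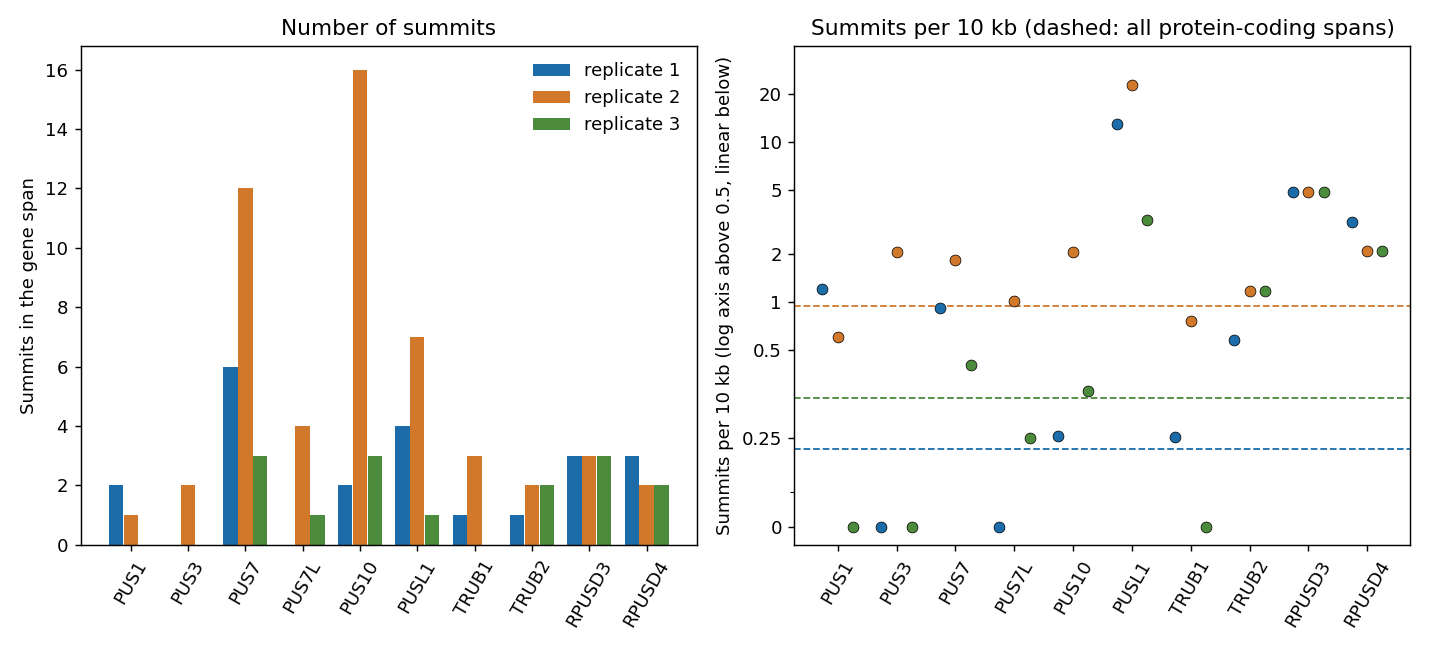
Number of summits per gene (left, linear axis from 0) and summits per 10 kb of span (right, log axis above 0.5 and linear below), by replicate, with dashed lines for the summits per 10 kb over all protein-coding spans. PUS10 and PUS7 have the most summits in replicate 2, 16 and 12, whereas PUSL1, RPUSD3 and RPUSD4 lie highest per 10 kb.

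For its length PUS7 was not told apart from the other genes in number of summits. It held 0.912, 1.82 and 0.456 summits per 10 kb in replicates 1, 2 and 3, where the median of the other 9 genes was 0.578, 2.05 and 0.384. The difference was 0.334, -0.226 and 0.0717, a mean of 0.0599 ± 0.28 (SD, n = 3 lists; two-sided exact sign-flip permutation test over lists, p = 0.75, where 0.25 is the smallest that 3 lists allow). Its sign changed between lists, and without replicate 1 the mean was -0.0771. In the other direction, the mean was 0.4 ± 0.241 with summits in no other gene, 0.295 ± 0.231 with lists of equal length and 0.166 ± 0.174 with spans extended by 1000 bp, and PUS7 was above the median in each of the 3 lists under these settings (exact sign-flip permutation p = 0.25 for each). PUSL1 was highest in replicates 1 and 2, with 13, 22.7 and 3.25 per 10 kb in the 3 lists, and RPUSD3, with 4.87 in each list, was highest in replicate 3. Over the 10 spans together there were 0.771, 1.82 and 0.525 summits per 10 kb, a mean of 1.04 ± 0.688 (SD, n = 3 lists), against 0.219, 0.934 and 0.363 over all protein-coding spans. Over the 10 genes Spearman's rho between span and number of summits was -0.245, 0.443 and 0.219 in the 3 lists.

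In strength PUS7 lay above the median of the others in each list when ranked by −log10 p. That held under some other settings and not under others. Ranked by −log10 p among protein-coding genes with a summit in the same list, its strongest peak was at percentile 58.2, 91.4 and 98.6 in replicates 1, 2 and 3. The median of the other 9 genes, with a gene without a summit set to 0, was 50.8, 45.5 and 66.0. The differences of 7.48, 45.9 and 32.6 points gave a mean of 28.6 ± 19.5 (SD, n = 3 lists; two-sided exact sign-flip permutation test over lists, p = 0.25, the smallest that 3 lists allow, so that this design cannot pass 0.05). Ranked by fold in place of −log10 p the mean difference was 13.9 ± 24.0 points (SD, n = 3 lists; exact sign-flip permutation p = 0.5), and with peaks of at least 10 reads it was 25.7 ± 59.0 (exact p = 1), so the sign was not the same in all lists under either setting. A longer span gives a gene more peaks from which the strongest is taken, and the part of span in this difference was not tested. PUSL1, with a mean percentile of 82.3 ± 17.9, was as high as PUS7, with 82.7 ± 21.5, and RPUSD3 and PUS10 had 75.1 ± 25.7 and 73.9 ± 17.2 (SD, n = 3 lists). These 4 lay within their spread of each other. TRUB2 followed with 62.1 ± 40.9 and RPUSD4 with 48.4 ± 24.5, while PUS7L, TRUB1, PUS1 and PUS3, each without a summit in at least 1 list, had 41.0, 29.7, 18.0 and 2.05.

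**Figure D4:**
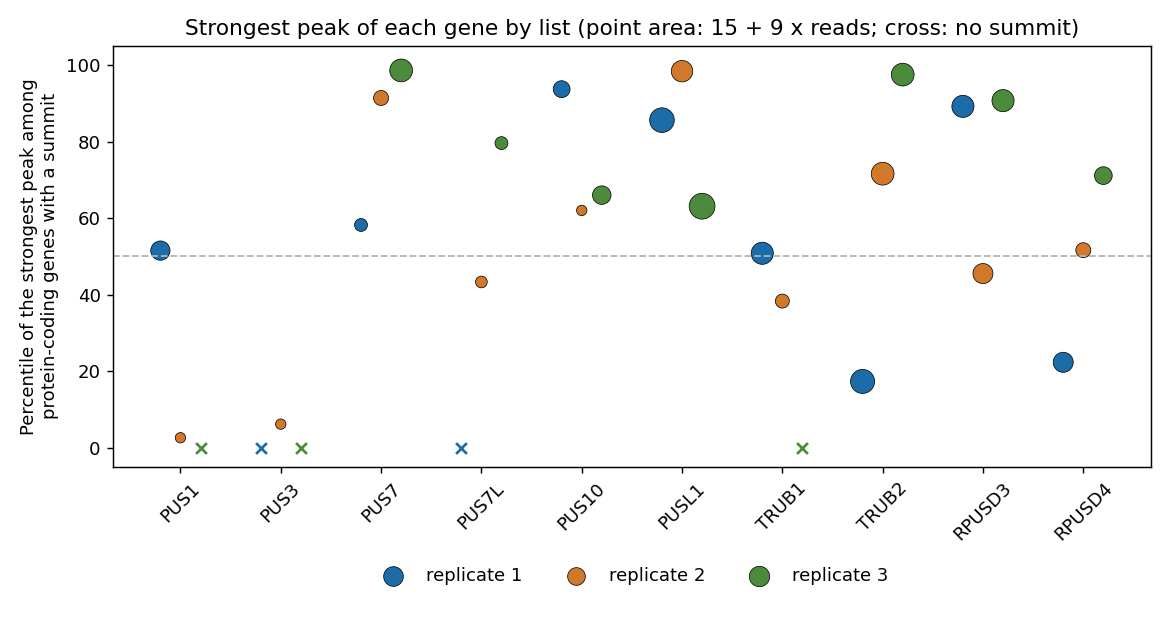
Percentile of each gene's strongest peak, by −log10 p, among protein-coding genes with a summit in the same replicate, with point area growing with the reads at that summit, crosses for genes without a summit and a dashed line at 50. PUS7, PUS10 and PUSL1 lie above 50 in all 3 replicates, and PUS7 rests on fewer reads than PUSL1.

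The genes whose strongest peaks ranked most like those of PUS7 over the 3 lists were RNF157, SLC25A20 and CCDC50. Their Euclidean distances from the PUS7 percentiles were 0.244, 1.92 and 1.92 points, among 7714 protein-coding genes with a summit in all 3 lists. RNF157 had percentiles of 58.2, 91.1 and 98.6.

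Mean agreement between lists was near that of protein-coding genes as a whole, though single pairs of lists differed from it both ways. In replicate 1, 40.9% of the member peaks shared 1 bp or more with replicate 2 and 27.3% with replicate 3, where all peaks in protein-coding genes gave 35% and 29.2%. Of those of replicate 2, 19.2% overlapped replicate 1 and 28.8% replicate 3, against 8.31% and 47.2%. Of those of replicate 3, 40% overlapped replicate 1 and 46.7% replicate 2, against 16.5% and 57.7%. The mean over the 6 ordered pairs was 33.8% for member peaks and 32.3% for all. Where peaks of at most 1000 bp met, their summits lay a median of 33.5 bp apart for replicates 1 and 2 (10 pairs in 6 genes), 42.0 bp for 1 and 3 (5 pairs) and 37.0 bp for 2 and 3 (4 pairs). Among peaks with at least 10 reads, 20 of 29 overlapped a peak of another list. Apart from PUS7, with 6 of 21, the other genes had 35 of 68 peaks (51.5%) that did, of which 10 were single-read peaks of PUS10. For these counts, which take overlap with any other list, the share over all protein-coding peaks was not computed. They therefore show neither good nor poor agreement.

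Summits lay along the whole of the genes. In the 7 genes with known strand the median summit lay 67.0%, 57.3% and 46.7% of the way from the start in replicates 1, 2 and 3, a mean of 57.0% ± 10.2 (SD, n = 3 lists). Over all protein-coding genes with known strand it lay at 62.2%, 57.5% and 51.8%. Within 500 bp of the start were 3 of 16, 3 of 40 and 3 of 13 member summits, against 8.74%, 4.11% and 6.92% of the summits of all such genes. Overlapping peaks of 2 lists with summits in that zone were found for 3 of the 7 genes, PUS7, RPUSD3 and RPUSD4, whose start sequences are printed above, against 11.9% of protein-coding genes. RPUSD3 was joined there by replicates 2 and 3, RPUSD4 by 1 and 2, and PUS7 by 1 and 3, so each pair of lists met at a different gene. Exons were not used here, and peaks inside the spans are not assigned to exons or introns.

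Other genes of the pathway had no segment shared by all 3 lists, where 10.8% of protein-coding genes had one. They are too few to tell whether their share differs. The remaining synthases RPUSD1 and RPUSD2 had a summit in all 3 lists, with at most 12 reads, and 0 of 2 had a segment shared by all. Of 6 genes of box H/ACA proteins and their assembly, DKC1 and SHQ1 had a summit in all 3 lists, and 0 of 6 had a shared segment. Among all protein-coding genes 38.5% had a summit in all 3 lists. DKC1, which encodes dyskerin, had 1, 5 and 3 summits, and its strongest had 9, 11 and 18 reads and folds of 4.27, 5.14 and 5.22. NOP10, a small structural protein of the particle, had no summit in any list, whereas NHP2 had 1 in replicate 3 with 37 reads. GAR1 had 0, 1 and 1 summits.

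Enzymes and readers of other RNA modifications had shared segments, as some of the 10 synthases did. Of 16 genes of N6-methyladenosine, 4 did, RBM15, VIRMA, METTL3 and ALKBH5. Of 10 genes that modify uridine in other ways, 3 did, MTO1, ELP3 and CTU1. Of 17 tRNA base methyltransferase genes 3 did, of 7 m5C methyltransferase genes NOP2 did, and of 5 RNA deaminase genes ADARB1 did. With peaks of at most 1000 bp, 2 tRNA base methyltransferase genes and 0 deaminase genes had one. The N6-methyladenosine, other uridine and m5C lists then still had 4, 3 and 1. The 23 genes of other tissues had a segment in 3 cases, ACTN2, CD8A and TNNI3, and 1 of these remained with peaks of at most 1000 bp. A shared segment therefore occurred at 13% of genes taken as silent, against 40% of the 10 synthases and 10.8% of all protein-coding genes. With peaks of at most 1000 bp it was 1 of 23, 3 of 10 and 5.97%.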

How the data were processed

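Peak lists of 3 RIP-seq samples from SNRPD2-overexpressing HEK293T cells were used, 1 list per sample, grouped by title. The submitters' processing notes name MACS2 2.2.9.1, STAR 2.7.10b and cutadapt 4.2, and the build GRCh38. For the caller's options, its background library and duplicates, settings are not given in the sources used. The deposited score is the whole part of 10 times the −log10 p-value, and the deposited fold, −log10 p-value and −log10 q-value are the authors' own, used within a list only. The other deposited columns give positions. Gene spans, strands and start sequences came from RefSeq tables of the same build.

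Reads at a summit were recovered as the whole number that returned the deposited −log10 p within 0.002 for a height per read of 0.599, 1 and 0.254. All peaks but 1, in replicate 3, were solved, and the best match was taken where several solved. The smallest match was tried after the data were seen. Depth is otherwise unknown, and reads set each peak's precision. Simulated read numbers were recovered for 100% of 776, 791 and 711 peaks. These had lower backgrounds than some real peaks and none had a single read, so the recovery in the real lists is not known from them. In the real lists 2855, 807 and 2594 peaks were solved by several numbers. Summits were counted in spans and overlaps needed 1 bp (Python 3.11.15, NumPy 2.4.6, SciPy 1.17.1). PUS7 was compared with the median of the others by an exact sign-flip permutation test over lists.

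The members and lists were chosen with earlier results of these data known. One gene of the list of other tissues is not reported here. All members are named, with the 3 genes ranked most like PUS7, list genes by counts, and overlapping genes at summits. Genes named from the other lists were those with a shared segment or, for the box H/ACA list, chosen after their values were seen. Alternatives were a −log10 q of at least 3, at least 10 or 2 reads, peaks of at most 1000 bp, lists of equal length, summits in no other gene, spans extended by 1000 bp, other overlap rules, and leaving out each replicate.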

Additional observations from a re-analysis of the deposited data

How the results depend on the processing

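No paired analysis was possible because the samples with the genotype Ctrl entered no comparison. Of 81 recomputed values, 61 stayed within the spread of the main value or its direction. With a −log10 q of at least 3, 0 members had a summit in all lists or a shared segment, summits per 10 kb were 0.0233 and overlap between lists was 0%. With at least 10 reads the numbers were 3 members with a summit in all lists, 2 with a shared segment, 0.339 summits per 10 kb (0.327 by the smallest read number, with 3 and 2 members again), 44.3% overlap and a median position of 39.4% (41.7%). PUS7 then had fewer summits per 10 kb than the median of the others, at -0.0914 (-0.142). Lists of equal length and segments of at least 100 bp each left 1 member with a shared segment. Overlap was 14.2% when reciprocal overlap of 50% was asked and 22.9% for summits within 50 bp. The rules on q, reads and list length leave fewer peaks, and those on segments and overlap are stricter on the same peaks. The cause of these changes was not tested further. Leaving out each replicate in turn gave 6 to 8 members with a summit in all remaining lists, 5 to 6 with a shared segment, 0.648 to 1.30 summits per 10 kb, 30.1% to 37.8% overlap, a PUS7 difference from -0.0771 (without replicate 1) to 0.203 summits per 10 kb and from 20 to 39.2 percentile points, and a median position of 52.0% to 62.2%. No fit here can reach 0.05. Reads at member summits numbered 21 at most, and a place without a peak does not show that the RNA was unbound.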
